A study of Mus musculus with 8 samples.

Results

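Of the 55413 genes annotated in the mouse genome (GENCODE M21, GRCm38), 8 cadherin genes that are large and mostly lie in gene-poor sequence of chromosomes 8 and 15 were scored for histone H3 lysine 9 methylation: Cdh6, Cdh8, Cdh9, Cdh10, Cdh11, Cdh12, Cdh13 and Cdh18. They were taken by name from the 1825 protein-coding genes of the 2 chromosomes, 3 from chromosome 8 and 5 from chromosome 15. Each start site with 1 kb either side, each gene body and each 500 kb flank was compared with the regions enriched for H3K9me1, H3K9me2 and H3K9me3 (mono-, di- and trimethylation of the residue). The maps came from chromatin immunoprecipitation and sequencing (ChIP-seq) of wild-type mouse embryonic fibroblasts (MEFs), with 2 replicates of input and of each mark, or 8 samples in 4 groups. The cells called WT are the E1c line, a single MEF clone picked for high Cre activity, in which tamoxifen can switch on deletion of Eset1 (a H3K9 methyltransferase gene), and no tamoxifen treatment is named in the labels. All groups were therefore the same clone, and differed in the antibody used, with none for input. The data were 1 list of regions per mark over both replicates, with positions and no score. No spread between replicates could be computed and no test was run, the read depth is unknown from the lists, and the values describe 1 map per mark.

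Cadherins are calcium-dependent adhesion proteins that hold neighbouring cells together through their extracellular domains and bind catenins inside the cell, which link them to the actin cytoskeleton. Cdh6, Cdh8, Cdh9, Cdh10, Cdh11, Cdh12 and Cdh18 encode type II classical cadherins, best known from the developing nervous system, where different neurons carry different members. Cdh11, or OB-cadherin, is also the cadherin of mesenchymal cells, fibroblasts among them. Cdh13, or T-cadherin, lacks the transmembrane and cytoplasmic parts and is held on the membrane by a lipid anchor. H3K9me3 is the mark of heterochromatin bound by HP1 proteins, H3K9me2 is spread widely over silent genes, and H3K9me1 is also found over transcribed genes. The lists alone do not say whether a gene was transcribed in these cells, and expression was not analysed here.

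The gene-poor setting held for most of the genes, and not for Cdh13. In GRCm38, Cdh8 (8:99024471-99416471, minus strand, 392 kb), Cdh9 (15:16728756-16857094, plus strand, 128 kb), Cdh10 (15:18818947-19014236, plus strand, 195 kb), Cdh11 (8:102632095-102785642, minus strand, 154 kb) and Cdh18 (15:22549022-23474418, plus strand, 925 kb) had 0 other protein-coding genes within 500 kb. Cdh12 (15:20449265-21589533, plus strand, 1140 kb) had 1, the acyl-CoA thioesterase gene Acot10, which lies inside it. These 6 genes had at most 1 such neighbour, as did 37 of the 1825 protein-coding genes (2.03%). Cdh6 (15:13028701-13173675, minus strand, 145 kb) had 3 neighbours, all beyond its 3' end. Cdh13 (8:118283733-119324921, plus strand, 1041 kb) had 16, of which 15 lay beyond its 3' end. The median was 0 for the 8 cadherins, 6 for the 194 other protein-coding genes of at least 100 kb on the 2 chromosomes and 19 for all 1825.

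Sequence at the start sites is shown for the genes whose starts carried different marks. Promoters of 300 bases (250 before and 50 after the start) were found in the RefSeq table of GRCm38.p6 for 6 of the 8 genes, and not for Cdh11 and Cdh13. They are written 5' to 3' on the strand of the gene, with CG dinucleotides in capitals. The promoter of Cdh6 lay wholly in H3K9me2 and H3K9me3 regions, that of Cdh8 wholly in an H3K9me3 region, and those of Cdh9 and Cdh10 in none.
Cdh6 (chr15:13173626-13173925, minus strand): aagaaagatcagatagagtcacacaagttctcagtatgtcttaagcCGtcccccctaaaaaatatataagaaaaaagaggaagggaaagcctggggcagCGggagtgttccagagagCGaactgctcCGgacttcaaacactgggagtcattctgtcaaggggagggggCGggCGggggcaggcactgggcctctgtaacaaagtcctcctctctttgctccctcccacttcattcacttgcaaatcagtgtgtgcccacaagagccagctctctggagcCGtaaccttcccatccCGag
Cdh8 (chr8:99416422-99416721, minus strand): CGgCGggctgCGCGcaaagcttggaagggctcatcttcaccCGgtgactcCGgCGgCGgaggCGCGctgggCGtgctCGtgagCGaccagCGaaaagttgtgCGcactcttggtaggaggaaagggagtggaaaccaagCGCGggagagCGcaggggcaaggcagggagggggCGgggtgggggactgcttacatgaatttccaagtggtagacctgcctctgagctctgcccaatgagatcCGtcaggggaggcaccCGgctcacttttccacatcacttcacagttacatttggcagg
Cdh9 (chr15:16728665-16728964, plus strand): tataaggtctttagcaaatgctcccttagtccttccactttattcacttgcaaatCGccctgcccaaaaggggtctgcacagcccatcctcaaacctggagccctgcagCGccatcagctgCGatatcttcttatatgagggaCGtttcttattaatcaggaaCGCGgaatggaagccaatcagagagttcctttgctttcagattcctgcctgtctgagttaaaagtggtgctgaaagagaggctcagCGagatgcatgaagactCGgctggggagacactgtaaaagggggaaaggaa
Cdh10 (chr15:18820079-18820378, plus strand): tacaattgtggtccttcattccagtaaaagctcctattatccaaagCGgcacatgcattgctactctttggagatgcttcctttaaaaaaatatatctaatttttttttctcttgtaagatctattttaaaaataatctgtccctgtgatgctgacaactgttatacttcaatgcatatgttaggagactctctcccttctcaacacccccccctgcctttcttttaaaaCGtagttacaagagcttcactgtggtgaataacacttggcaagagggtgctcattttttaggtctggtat

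The marked promoters were not alike in base composition. The Cdh8 promoter was 62.3% GC with 21 CG dinucleotides, and 75.2% of the 32851 promoters in the table had fewer. The Cdh6 promoter, at 53.0% GC and 8 CG, was close to the median promoter (52.7% GC and 7 CG). The unmarked promoter of Cdh9 also had 8 CG, at 48.7% GC. The other unmarked promoters ranged from 2 CG at Cdh10 (37.7% GC) through 9 at Cdh12 (46.7% GC) to 12 at Cdh18 (60.3% GC). Promoters inside and outside regions thus overlapped in both measures. This rule differs from that of the start sites: Cdh9 has an unmarked promoter, but an H3K9me3 region lay within 1 kb of its 5'-most start.

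The RefSeq promoter of Cdh18 is 1 of several starts of that gene and carried no mark, while its 5'-most start did. This start, of the protein-coding transcript Cdh18-202, was met by an H3K9me2 region of 2.25 kb (chr15:22547251-22549500). The 300 bases in the middle of the region, on the plus strand, hold 0 CG dinucleotides at 32.3% GC, so none is in capitals. They end before the start itself (15:22549022) and are not a promoter as defined above.
Cdh18, H3K9me2 region (chr15:22548226-22548525, plus strand): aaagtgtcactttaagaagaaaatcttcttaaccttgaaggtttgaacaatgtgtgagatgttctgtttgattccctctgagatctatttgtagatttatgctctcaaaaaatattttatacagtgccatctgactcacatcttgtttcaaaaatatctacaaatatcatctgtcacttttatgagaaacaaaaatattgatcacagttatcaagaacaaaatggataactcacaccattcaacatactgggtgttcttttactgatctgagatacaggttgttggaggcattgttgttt

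A region of any mark reached within 1 kb of a start site in 6 of the 8 cadherins, a share close to the 79.2% of all 1825 protein-coding genes of the 2 chromosomes. H3K9me3 was the mark most often found there. H3K9me3 met a start of 5 genes (Cdh6, Cdh8, Cdh9, Cdh11 and Cdh13), against 31.6% of the protein-coding genes on the 2 chromosomes. H3K9me2 met a start of 3 genes (Cdh6, Cdh13 and Cdh18), against 35.2%. H3K9me1 met a start of 1 gene, Cdh13, against 72.2%. The count for H3K9me2 was thus near its background, that for H3K9me1 below it and that for H3K9me3 above it. The difference in H3K9me3 lay on chromosome 8, where 3 of 3 genes were met against 29.3% of all genes. Of these, Cdh13 was met only at starts of non-coding transcripts inside the gene, and not at its 5' end. On chromosome 15, H3K9me3 and H3K9me2 each met 2 of 5 genes, against 34.6% and 41.4%. No start of Cdh10 or Cdh12 was met by any mark. The genes were chosen with earlier results of these data known, and 8 genes give no more than counts to set beside these percentages.

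The genes differed in which of their starts were met. Of their 32 annotated start sites, H3K9me3 met 11, H3K9me2 met 4 and H3K9me1 met 3, against 17.3%, 20.2% and 55.7% of the 7858 starts of all protein-coding genes on the 2 chromosomes. Of the 16 starts of protein-coding transcripts, H3K9me3 met 6, H3K9me2 met 2 and H3K9me1 met 0, against 19.5%, 22.7% and 49.7% of 4431 such starts. Starts of a gene are not independent: the 6 belonged to 4 genes, and 3 of them were starts of Cdh8 within 44 bp of each other, in 1 region. In Cdh13 all marked starts were those of non-coding transcripts inside the gene, and the start of its protein-coding transcript was free of marks. The nearest H3K9me2 region ended 3.48 kb before that start, the nearest H3K9me1 region 4.23 kb and the nearest H3K9me3 region 13.2 kb before it.

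At the other marked starts the regions were of very different widths. The single start of Cdh6 lay in an H3K9me3 region of 103 kb (15:13151251-13254000) and in an H3K9me2 region of 29.2 kb (15:13151251-13180500), and the nearest H3K9me1 region lay 2.17 kb away. The 5'-most start of Cdh8 lay in an H3K9me3 region of 12.0 kb (8:99411751-99423750), with the nearest H3K9me2 at 35.8 kb and the nearest H3K9me1 at 206 kb. The 5' start of Cdh11 lay in an H3K9me3 region of 5.25 kb (8:102785251-102790500). Its nearest H3K9me2 region, at 1.11 kb, fell just outside the 1 kb window, and its nearest H3K9me1 region was 732 kb away. Cdh9 was just inside the window, with an H3K9me3 region of 1.5 kb (15:16726501-16728000) ending 0.756 kb before the 5'-most start, and its nearest H3K9me2 lay at 114 kb.

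By their 5'-most start, the 2 genes without a marked start were the farthest from any mark. The nearest region to the 5'-most start of Cdh10 was an H3K9me3 region of 0.75 kb at 7.55 kb (15:18826501-18827250). Cdh12 begins with the start of a non-coding transcript, 661 kb before its first protein-coding start. The nearest region to the non-coding start was H3K9me3 at 24.5 kb, and the nearest to the protein-coding start was H3K9me2 at 7.63 kb (15:21117751-21123000).

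**Figure D1:**
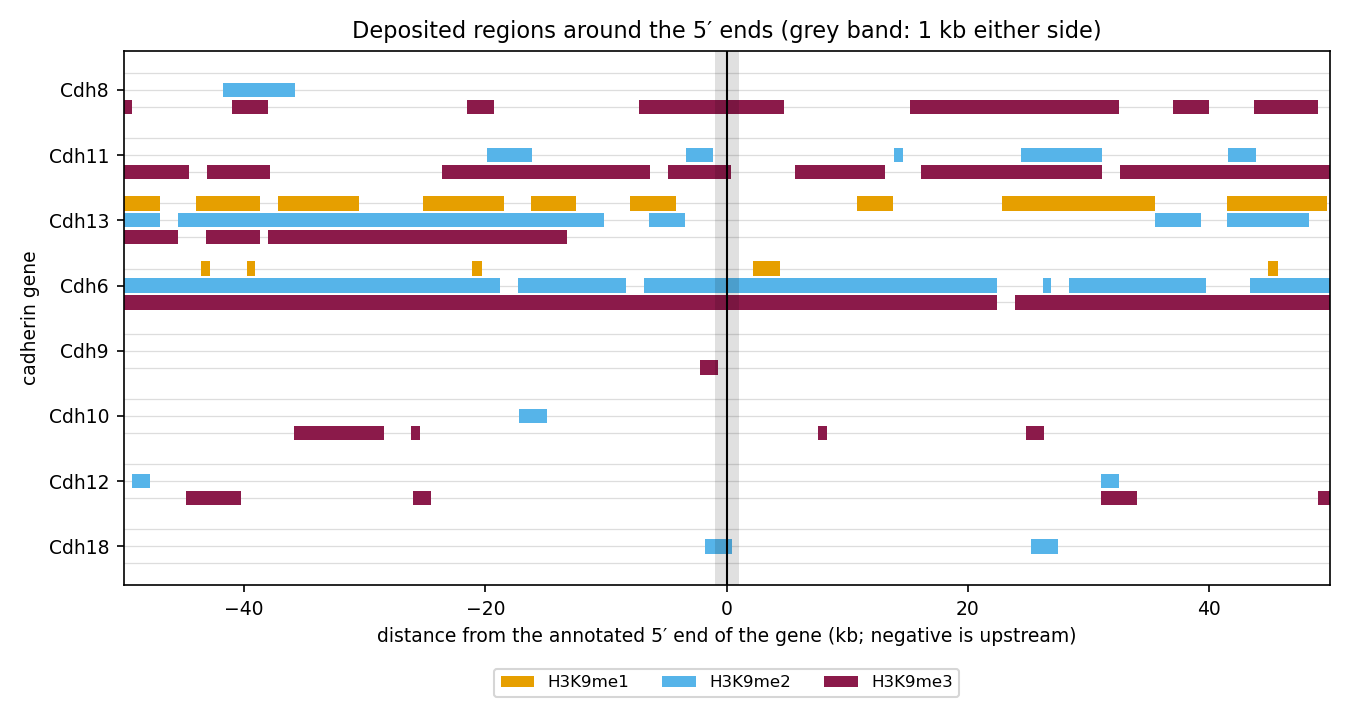
Regions of H3K9me1 (orange), H3K9me2 (blue) and H3K9me3 (dark red) within 50 kb of the annotated 5' end of each gene, with distance in kb on the horizontal axis and genes on the vertical axis. H3K9me3 lies on the 5' ends of Cdh6, Cdh8 and Cdh11 and 0.756 kb before that of Cdh9, H3K9me2 on those of Cdh6 and Cdh18, and the 5' end of Cdh13 lies in a gap between marked stretches.

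Cover of the gene bodies ranged from nearly complete at Cdh6 to 9.93% at Cdh9 for all marks combined. In Cdh6, Cdh8, Cdh9, Cdh10, Cdh11 and Cdh12, H3K9me3 covered the most bases and H3K9me1 no more than H3K9me2. Regions of H3K9me1 covered 16.8% of the body of Cdh6, 45.9% of Cdh13, 4.94% of Cdh18, 0.460% of Cdh12 and 0% of Cdh8, Cdh9, Cdh10 and Cdh11. No body reached 50% for H3K9me1, against 70.6% of the protein-coding genes on the 2 chromosomes. For H3K9me2, 1 body did (Cdh6), against 27.9%, and Cdh13 lay just under the limit. For H3K9me3, 2 bodies did (Cdh6 and Cdh11), against 24.0%, so that this count was near its background.

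**Figure D2:**
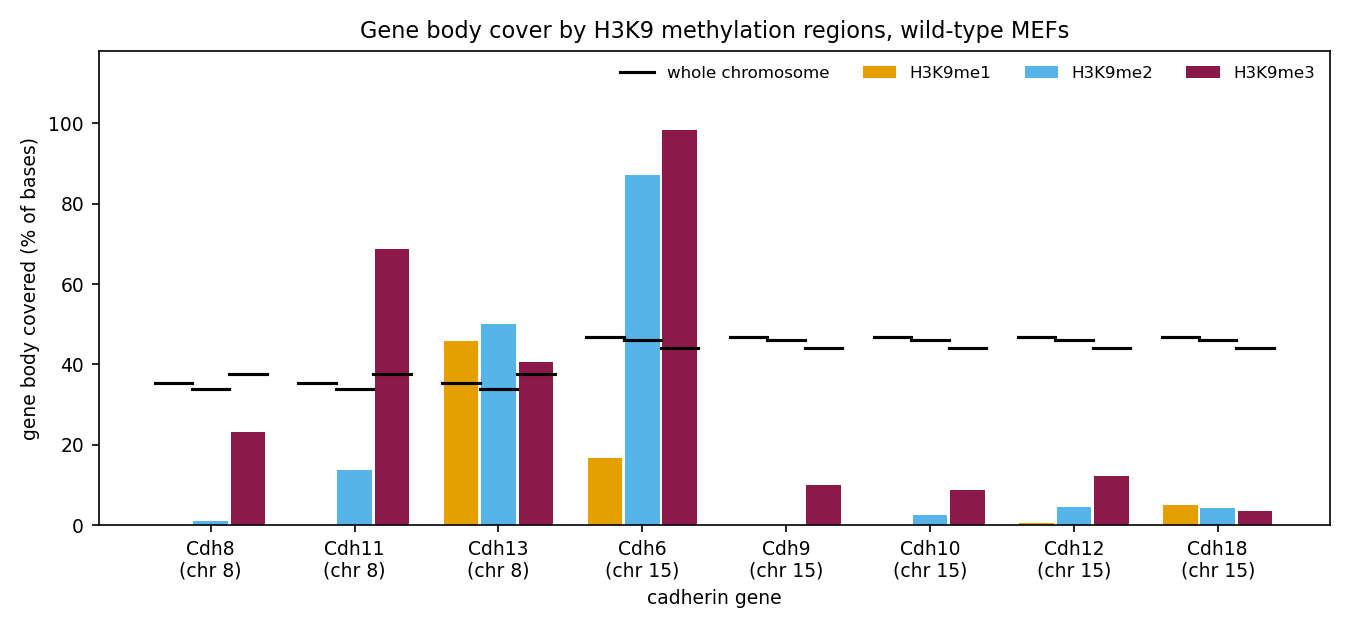
Percentage of gene body bases in regions of each mark (bars) for the 8 cadherins, with the cover of the whole chromosome by the same mark as a black line. Cdh6 reached 98.4% for H3K9me3, only Cdh13 exceeded its chromosome in all 3 marks, and Cdh8, Cdh9, Cdh10, Cdh12 and Cdh18 lay below their chromosome in all 3.

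The whole chromosomes were covered to a like degree by all 3 marks, at 35.5% (H3K9me1), 33.9% (H3K9me2) and 37.7% (H3K9me3) for chromosome 8 and 46.8%, 46.1% and 44.1% for chromosome 15. Pooled over the 4121 kb of the 8 gene bodies, the cover was 13.4% for H3K9me1, 18.7% for H3K9me2 and 23.4% for H3K9me3. The pooled values rest largely on Cdh13, which held 86.4% of the H3K9me1 cover, 67.5% of the H3K9me2 cover and 43.8% of the H3K9me3 cover. Without Cdh13 they were 2.44%, 8.13% and 17.6%. The genes are therefore described one by one.

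Cdh6, which encodes K-cadherin of the kidney and nervous system, was marked from end to end. H3K9me3 covered 98.4% of its body in 3 regions, and H3K9me2 covered 87.1% in 11 regions, all of it within H3K9me3. Each of its 10 equal parts was at least 89.7% covered by H3K9me3 and at least 63.8% by H3K9me2, and all 12 exons of its main transcript were met by both. H3K9me1 covered 16.8%, in 9 regions no wider than 4.50 kb and likewise within H3K9me3. By combination of marks, 71.3% of the body carried H3K9me2 and H3K9me3 together, 15.7% all 3 marks and 10.3% H3K9me3 alone.

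The marked stretch reached past both ends of Cdh6. With regions up to 5 kb apart joined, H3K9me3 ran for 551 kb (15:12938251-13489500) and H3K9me2 for 339 kb (15:12938251-13277250), and both spanned the whole gene. The 2 runs began at the same position, 2.96 kb beyond the 3' end of Drosha, which encodes the nuclease that starts microRNA processing. Drosha itself was 86.9% covered by H3K9me1, with H3K9me2 and H3K9me3 at 0%. The short gene next to it, 6030458C11Rik, was 79.4% covered by H3K9me1 and likewise at 0% for the other marks. The third neighbour, Pdzd2, which encodes a PDZ domain protein and lies 289 kb away, had all 3 marks, at 90.0% (H3K9me1), 85.6% (H3K9me2) and 75.5% (H3K9me3). Drosha and 6030458C11Rik thus differed from Cdh6 in H3K9me2 and H3K9me3, and Pdzd2 differed from it mainly in H3K9me1.

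Cdh11 carried mainly H3K9me3. This mark covered 68.7% of its body in 14 regions, the widest of 23.2 kb (8:102697501-102720750), and met 8 of the 13 exons of its main transcript. The highest cover lay in the 5' part, where, of 10 equal parts counted from the 5' end, parts 2 to 5 had 94.9%, 90.2%, 85.3% and 90.2%, and the lowest was 28.3% in part 7. H3K9me2 covered 13.7% in 8 regions, of which 85.7% was also H3K9me3, and H3K9me1 covered 0%. H3K9me3 alone made up 57.0% of the body, the largest share of that state in any of the 8 genes.

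Cdh8 had H3K9me3 mainly at its 5' end. The mark covered 61.7% and 65.6% of the first 2 of 10 equal parts and between 0% and 23.0% of the other 8, which gave 23.2% of the whole body in 19 regions. The widest, of 17.2 kb (8:99384001-99401250), lay 15.2 kb from the 5' end and met exon 2. H3K9me2 covered 1.15% in 2 regions, and 76.4% of the gene was free of all marks. Cdh8 and Cdh11 are neighbours among the protein-coding genes of chromosome 8, and both lacked H3K9me1 altogether.

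Cdh13 was the exception, with all 3 marks over 40.5% or more of its body and a change along its length. H3K9me1 covered 45.9% in 68 regions, H3K9me2 just under 50% in 48 regions and H3K9me3 40.5% in 33 regions. In the first 5 of 10 equal parts (521 kb), the cover was 25.9%, 16.1% and 4.03%, respectively. In the last 4 (416 kb) it was 72.8%, 91.7% and 86.2%. H3K9me3 was at 0% in the first 2 parts and at 81.3% or above in each of the last 4. GC content was 45.1% in the first stretch and 46.7% in the second, and the soft-masked repeat share was 19.4% and 24.6%.

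Cdh13 had the largest share under all 3 marks, at 26.8% of its body against 15.7% in Cdh6, while most of Cdh6 carried H3K9me2 and H3K9me3 without H3K9me1. Of the rest of Cdh13, 11% of the body carried H3K9me1 alone, 10.6% H3K9me2 with H3K9me3 and 7.42% H3K9me1 with H3K9me2. Of its H3K9me3 cover, 92.3% was also H3K9me2 and 67.8% was also H3K9me1. The widest regions of each mark lay in the 3' part, at 92.2 kb for H3K9me1 (8:119205001-119297250, exons 9 to 11), 116 kb for H3K9me2 (8:119065501-119181000, exon 7) and 69 kb for H3K9me3 (8:118909501-118978500, exon 6). Its exons, 1.08% of the gene, were 89.2% covered by H3K9me1 against 45.4% of its introns. The other marks had the same direction, at 69.7% against 49.8% for H3K9me2 and 61.9% against 40.2% for H3K9me3. Where the exons lie along the gene was not taken into account.

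Cdh9, Cdh10, Cdh12 and Cdh18 were largely free of all marks, at 90.1%, 88.5%, 85.4% and 88.2% of their bodies. Cdh9 had 2 H3K9me3 regions (9.93%), the wider of 8.25 kb in intron 2 (15:16787251-16795500), and no H3K9me1 or H3K9me2. Cdh10 had 6 H3K9me3 regions (8.83%) and 3 H3K9me2 regions (2.69%), which shared 0 kb. Marked sequence in these genes was thus scattered and mostly single-marked. Cdh12 had 37 H3K9me3 regions (12.2%) and 23 H3K9me2 regions (4.67%), spread over all 10 equal parts of the gene with a median width of 3.0 kb and 1.5 kb. No exon of the main transcripts of Cdh9 and Cdh12 was met by any mark.

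Cdh18 differed from the other sparsely marked genes in the balance of its marks. H3K9me1 covered 4.94% in 18 regions, H3K9me2 4.35% in 21 regions and H3K9me3 3.57% in 10 regions, so H3K9me1 was the most extensive mark by a small margin. The regions hardly overlapped, with 4.38% of the body under H3K9me1 alone, 3.29% under H3K9me2 alone and 3.08% under H3K9me3 alone. The widest H3K9me1 region, of 7.50 kb, lay in intron 4 (15:23329501-23337000) and met neither of the other marks. The order of marks in Cdh18 rests on short regions: with only those of at least 5 kb, its cover was 2.03% for H3K9me1, 0% for H3K9me2 and 1.38% for H3K9me3.

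**Figure D3:**
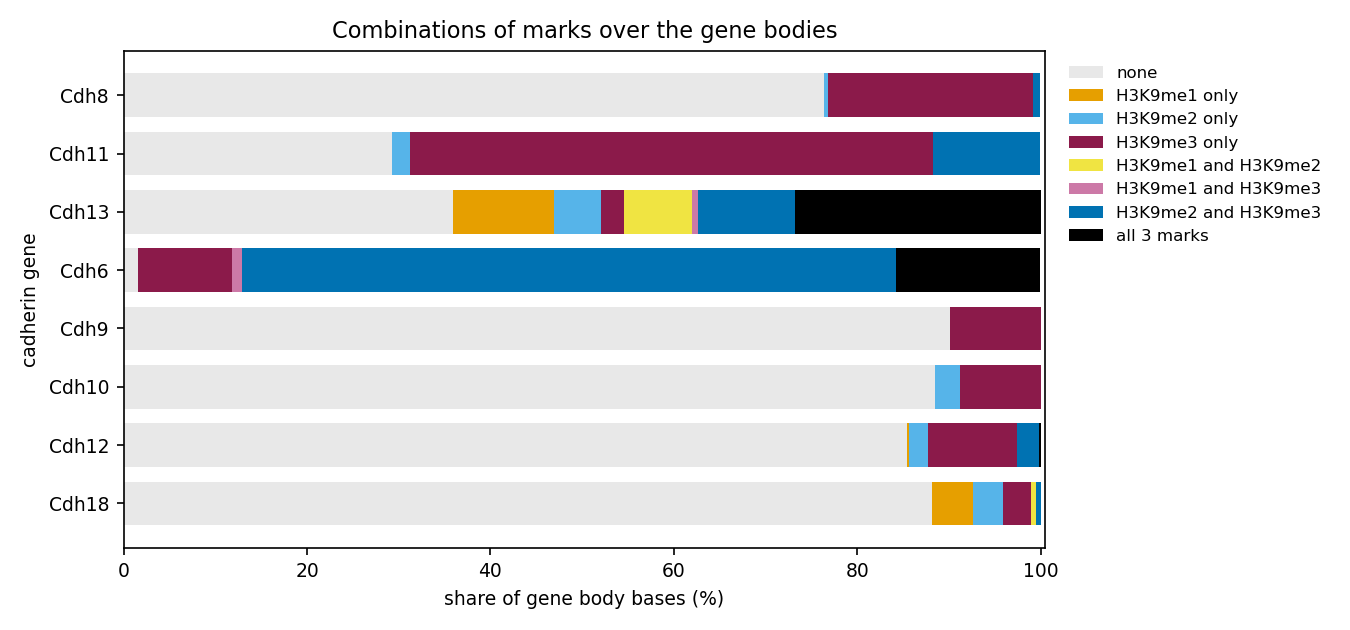
Share of gene body bases (horizontal axis, %) in each of the 8 combinations of the 3 marks, 1 bar per gene. H3K9me2 with H3K9me3 fills 71.3% of Cdh6, H3K9me3 alone 57.0% of Cdh11 and all 3 marks 26.8% of Cdh13, while 85.4% to 90.1% of Cdh9, Cdh10, Cdh12 and Cdh18 is unmarked.

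In 3 of the 4 sparsely marked genes, the H3K9me3 bases were more repetitive than the rest. Soft-masked repeats made up 87.3% of the H3K9me3 cover of Cdh18 against 36.4% of its other bases. The figures were 61.1% against 37.1% in Cdh12 and 59.3% against 29.9% in Cdh9. In Cdh10 the direction was the other way, at 24.5% against 30.7%. Cdh8 and Cdh11 also had fewer repeats inside H3K9me3 than outside (23.1% against 27.3% and 15.7% against 18.1%), and Cdh13 had 22.8% against 21.1%. Cdh6 had 23.1% against 25.7%, but H3K9me3 covered 143 of its 145 kb, so that very few bases were outside. GC content was higher inside H3K9me3 than outside it in all 8 genes, with the same limit for Cdh6. The widest margin was that of Cdh18 (43.5% against 36.2%). How far repeats affect read alignment, and with it these regions, was not tested.

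The flanks carried more H3K9me3 than the bodies. Over the 8000 kb of flanks, H3K9me1 covered 14.3%, H3K9me2 20.8% and H3K9me3 36.7%. Without the flanks of Cdh13 these values were 5.84%, 15.1% and 34.1%. The body was below the mean of its flanks in 6 genes for H3K9me3, in 6 for H3K9me2 and in 5 for H3K9me1. Cdh6 and Cdh11 were the exceptions for H3K9me3, with 98.4% in the body against 70.6% in the flanks and 68.7% against 64.7%. The largest deficit was that of Cdh10, with 8.83% in the body against 26.6% in the flanks. Cdh12 and Cdh18 are close enough that 40.5 kb was counted in a flank of each.

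The 2 flanks of a gene were often unlike. H3K9me3 covered 83.5% upstream and 45.9% downstream of Cdh11, and 82.8% upstream and 58.5% downstream of Cdh6. H3K9me1 covered 1.2% upstream of Cdh6 and 74.3% downstream, on the side of Drosha. Around Cdh13, H3K9me2 and H3K9me3 covered 89.9% and 87.0% upstream and 31.5% and 23.4% downstream, while H3K9me1 covered 59.4% upstream and 87.0% downstream. The 5' part of Cdh13 was thus a sparsely H3K9me3-marked stretch between heavily marked sequence on either side. H3K9me1 covered no more than 3.45% of any flank of the other 6 genes, and 0% of both flanks of Cdh11.

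The neighbours downstream of Cdh13 carried more H3K9me1 than the other marks. The median body cover of the 15 genes was 91.9% for H3K9me1, 12.9% for H3K9me2 and 9.58% for H3K9me3. The medians of all 1825 protein-coding genes of chromosomes 8 and 15 were 76.0%, 0.221% and 0%. H3K9me1 met a start of 13 of the 15 genes, against 67.3% of all protein-coding genes on chromosome 8. More H3K9me1 than the other marks was thus also usual for genes of these chromosomes. The nearest neighbour, Hsbp1, which encodes a small protein that binds heat shock factor, was 65.9% covered by H3K9me1 and 0% by the others. Acot10, inside Cdh12, was 81.3% covered by H3K9me2 with no H3K9me1 or H3K9me3.

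**Figure D4:**
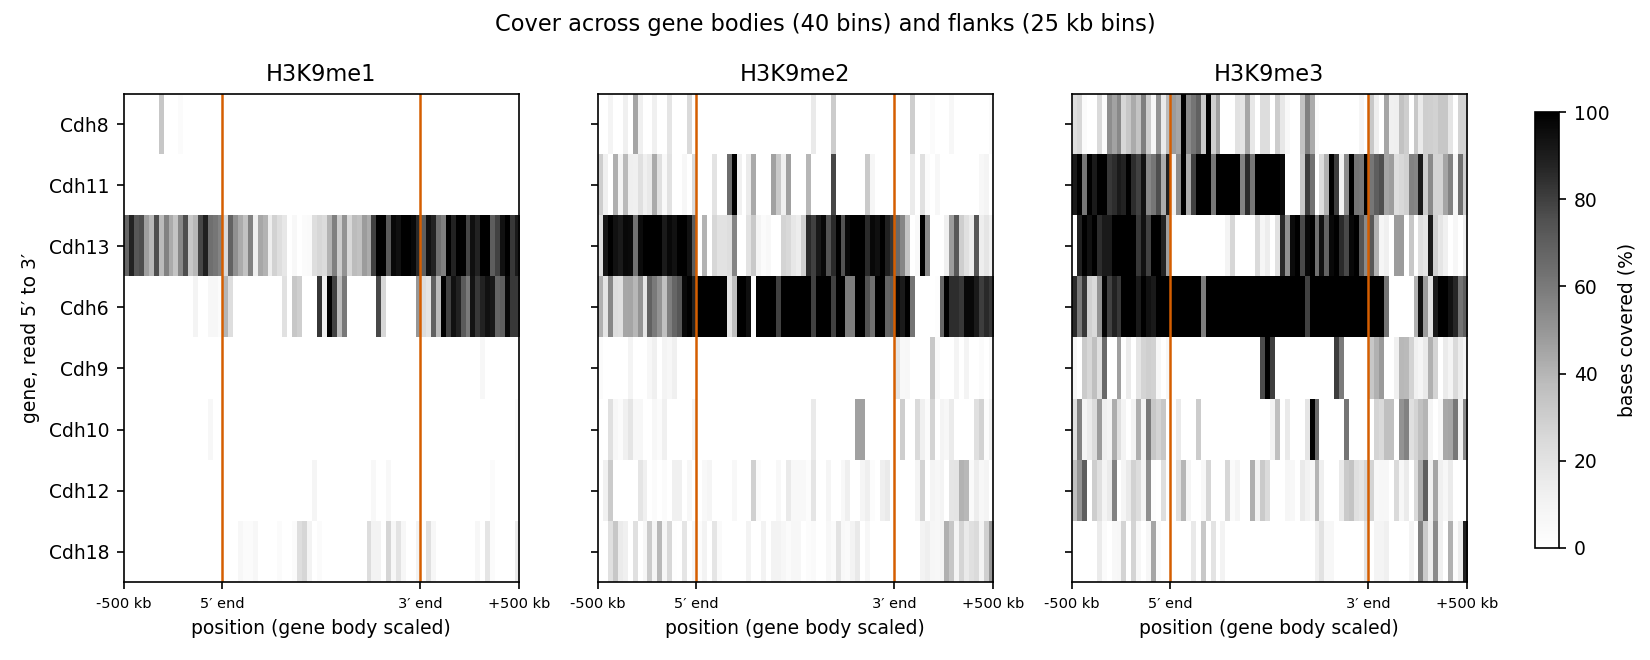
Share of bases covered (grey scale, 0 to 100%) along each gene, read 5' to 3', with the body scaled to 40 bins and 500 kb flanks in 25 kb bins, 1 panel per mark. H3K9me3 spans Cdh6 and most of Cdh11, is absent from the first 2 of 10 equal parts of Cdh13 and covers at least 81.3% of each of its last 4, and H3K9me1 is seen at length only in and around Cdh13 and downstream of Cdh6.

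The stretches between these cadherins that held 0 other protein-coding genes carried H3K9me3 and little H3K9me1. The 3.22 Mb from Cdh8 to Cdh11, with 0 other protein-coding genes, had 32.8% of their bases in H3K9me3, 3.73% in H3K9me2 and 0.373% in H3K9me1 regions. The 4 stretches of chromosome 15 from Cdh6 to Cdh18, also with 0 other protein-coding genes, had between 12.0% and 33.2% H3K9me3, between 3.75% and 12.5% H3K9me2 and between 0.0523% and 0.211% H3K9me1. The 15.5 Mb from Cdh11 to Cdh13 held 185 other protein-coding genes and had 53.7% of their bases in H3K9me3, 52.0% in H3K9me2 and 54.5% in H3K9me1 regions. The stretches without genes therefore differed most from the stretch with genes in H3K9me1.

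Among long genes the cadherins other than Cdh13 stood low in H3K9me1. The median body cover of the 8 cadherins was 0.230% for H3K9me1, 4.51% for H3K9me2 and 17.7% for H3K9me3. For the 194 other protein-coding genes of at least 100 kb on chromosomes 8 and 15 the medians were 65.5%, 25.6% and 10.4%, and for all 1825 protein-coding genes 76.0%, 0.221% and 0%. Only the difference in H3K9me1 had the same direction on both chromosomes, with medians of 0% against 60.0% of the other long genes on chromosome 8 and 0.460% against 74.8% on chromosome 15. For H3K9me2 the cadherins were at 13.7% against 10.2% on chromosome 8 and at 4.35% against 41.7% on chromosome 15. For H3K9me3 they were at 40.5% against 7.50% on chromosome 8 and at 9.93% against 14.5% on chromosome 15. Of the 194 long genes, 188 had more H3K9me1 than Cdh8, Cdh9, Cdh10 and Cdh11, which had none. Cdh13, at 45.9%, was exceeded in H3K9me1 by 125 of the 194 and exceeded 69 of them. Cdh6 was exceeded by 25 of the 194 in H3K9me2 and by 7 in H3K9me3.

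Low H3K9me1 was shared with some other long genes in gene-poor sequence, and not with all. The 16 other long genes with at most 1 protein-coding neighbour within 500 kb had medians of 2.51% (H3K9me1), 14.4% (H3K9me2) and 27.6% (H3K9me3). The 178 with more neighbours had 69.1%, 26.0% and 9.82%. For H3K9me1 the 16 genes were widely spread, from 0% (as in Spock3) to 82.9% (Zfat), so their median does not describe each of them. The limit of 1 neighbour was set after the values were seen. No test compared the cadherins with these 16 genes.

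**Figure D5:**
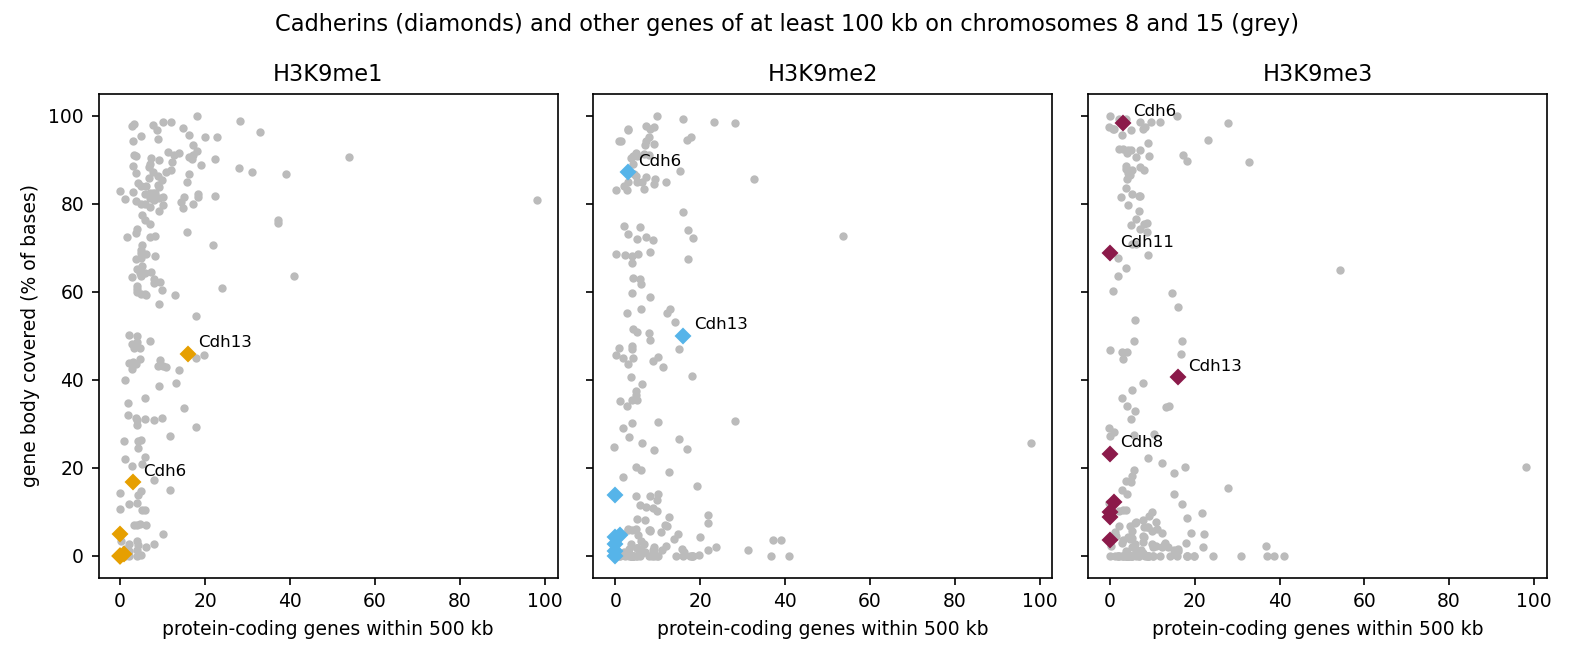
Gene body cover (vertical axis, %) against the number of protein-coding genes within 500 kb (horizontal axis), 1 panel per mark, with the cadherins as coloured diamonds and the 194 other long genes as grey points. Cadherins without neighbours lie at up to 4.94% for H3K9me1, at up to 13.7% for H3K9me2 and between 3.57% and 68.7% for H3K9me3.

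Some long genes had nearly the same mixture of marks as single cadherins. Likeness was measured as the sum, over the 8 combinations of marks, of the differences in the share of the gene body, in percentage points, and a lower sum is a closer match. For Cdh12 the closest of the 194 was Csmd3, a giant gene of the same chromosome (sum 1.04), which was also closest to Cdh10 (7.22) and Cdh9 (8.92). Nrg1, which encodes the growth factor neuregulin, was closest to Cdh18 (7.92), Spock3 to Cdh8 (6.01) and Rnf150 to Cdh6 (6.29). Rnf150 had 98.5% H3K9me3 and 85.0% H3K9me2. No close match was found for Cdh11 (Fam155a, 21.9) or Cdh13 (March11, 24.4).

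The 5 other cadherin genes listed on chromosomes 8 and 15 all lie on chromosome 8 and are under 100 kb long. Each mark met a start of 4 of them, against 67.3% (H3K9me1), 30.6% (H3K9me2) and 29.3% (H3K9me3) of all protein-coding genes on chromosome 8. The median body cover of the 5 genes was 80.9% for H3K9me1, 62.5% for H3K9me2 and 43.4% for H3K9me3. For Cdh8, Cdh11 and Cdh13 of the same chromosome it was 0%, 13.7% and 40.5%. The medians were thus far apart for H3K9me1 and H3K9me2, although the ranges overlapped. For H3K9me1 the 3 genes ranged from 0% to 45.9% and the 5 others from 37.8% to 100%. For H3K9me2 the 3 genes ranged from 1.15% to just under 50% and the 5 others from 0% to 87.8%. For H3K9me3, the median of the 3 genes is the value of Cdh13, and they ranged from 23.2% to 68.7%. The 5 other cadherins ranged from 0% to 66.4% for this mark. Cdh1, the E-cadherin of epithelia, had 80.9% H3K9me1, 33.9% H3K9me2 and 17.0% H3K9me3. Cdh5, the cadherin of endothelial junctions, had 61.5%, 87.8% and 63.3%. Cdh15, the M-cadherin of muscle, had 100%, 62.5% and 66.4%, and Cdh16 of the kidney had 93.3%, 87.4% and 43.4%. Cdh3, or P-cadherin, had 37.8% H3K9me1 and no other mark, and none of its starts was met.

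Among the listed catenins, 1 lies on these chromosomes. Ctnnd2, a delta-catenin gene of chromosome 15 known from neurons, had 13.9% of its body in H3K9me1, 68.1% in H3K9me2 and 92.2% in H3K9me3 regions, and all 3 marks met a start of it. On other chromosomes, a start of 3 of 10 cadherins was met by H3K9me1, of 1 by H3K9me2 and of 2 by H3K9me3, and the counts for 6 catenins were 2, 1 and 1. The share of all genes on the other chromosomes that met the same rule was not computed. These counts therefore have no background beside them, and nothing is concluded from them. The 9 other chromosomes differed widely in cover, from 0.130% to 56.5% for H3K9me1, from 0% to 59.0% for H3K9me2 and from 0.244% to 58.8% for H3K9me3, so genes of different chromosomes are not set against each other here.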

How the data were processed

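ChIP-seq of H3K9me1, H3K9me2 and H3K9me3 and of input was done in WT (E1c) MEFs, with 2 replicates each. As the methods state, the authors aligned reads to mm10 (GRCm38) with bwa (BWA 0.7.1 in the submitters' processing notes) and called regions with histoneHMM, a hidden Markov model over bins. The deposited lists give chromosome, start and end, with no score. Other than positions, no values were available per sample, and how replicates and input entered the calls is not given in the sources used here. All positions lay on a 750 bp grid, with starts read as 1-based and ends as inclusive. The input had no list analysed here.

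Genes, exons and start sites were taken from GENCODE M21, and base composition and sequences from RefSeq GRCm38.p6. A start was met where a region reached within 1 kb of any annotated start site of the gene, and cover was the share of bases in regions. The main transcript of a gene is its longest protein-coding one by coding length. Background percentages are over all protein-coding genes of chromosomes 8 and 15. Members and lists were chosen with earlier results of these data known. All 8 members are named, with other cadherins and catenins of the 2 chromosomes, the 2 nearest long genes by mark combination and neighbours within 500 kb, of which the few shown were picked after their values were seen. No test was run. The interval arithmetic was tested on simulated data. Python 3.11.15, NumPy 2.4.6 and Matplotlib 3.10.9 were used.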

Additional observations from a re-analysis of the deposited data

How the results depend on the processing

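Counts of cadherins with a marked start depended little on the rule for H3K9me3 (4 or 5 genes) and varied more for H3K9me2 (2 to 4 genes). For H3K9me1 the count was 0 with the 5' end of the gene alone and 2 with 5 kb either side, where Cdh6 was added. Pooled gene body cover by H3K9me1, H3K9me2 and H3K9me3 was 9.73%, 14.4% and 18.7% with regions of at least 5 kb, 15.5%, 21.2% and 26.2% with regions up to 5 kb apart joined, and 17.9%, 24.4% and 29.5% over the longest protein-coding transcript. Pooled flank cover was 12.4%, 14.7% and 30.4% with regions of at least 5 kb and 16.6%, 24.0% and 40.3% with joined regions. It was 13.3%, 19.8% and 35.3% with 250 kb flanks, and 18.5% (H3K9me2) and 33.5% (H3K9me3) with 1 Mb flanks. Leaving out Cdh13, an alternative chosen after seeing the data, gave 2.44%, 8.13% and 17.6% for bodies and 5.84%, 15.1% and 34.1% for flanks. In each of these alternatives, H3K9me3 covered the most bases and H3K9me1 the fewest.

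Of the 24 values of single genes and marks, 15 fell with regions of at least 5 kb by more than their 95% Wilson interval over bins. With joined regions, 8 rose by more than it. The interval treats bins as independent, which bins of the same region are not, so it serves only as a yardstick. Both directions were fixed in advance, because dropping regions can only lower cover and joining them can only raise it. Values already at 0% could not fall. With regions of at least 5 kb, H3K9me1 in Cdh6 and Cdh12 and H3K9me2 in Cdh8, Cdh10 and Cdh18 were at 0%. No paired analysis was possible because each mark had 1 list for both replicates. For the same reason no replicate could be left out. Region scores and depth were not analysed here, so weak and strong regions could not be told apart.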
